A study of Arabidopsis thaliana with 30 samples.

Results

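Leaf 3 of Arabidopsis thaliana, ecotype Col-0, was compared at day 10 and at day 8 after stratification. The arrays were those titled 10 DAS (3 arrays) and 8 DAS (3 arrays) in an untreated time course of 18 arrays, 6 of the 30 arrays of the series. The time course sampled leaf 3 daily from day 8 to day 13. A separate experiment sampled leaf 3 at days 9 and 10 with norflurazon, an inhibitor of carotenoid synthesis, or on MS medium alone. Its MS leaves are described as control transfer leaves, a handling step not named for the time course. Total RNA was hybridised to AGRONOMICS1 arrays, which tile the genome, and the deposited values are log2 levels per probe set made by the authors with RMA. All groups used here shared the ecotype, the MS medium, 22 °C and a cycle of 16 h of light and 8 h of dark, and no agent, allele or transgene is named for the day-8 and day-10 groups. The labels call the 3 arrays of a group biological repeats. They do not say how many leaves went into each, so p-values measure only the spread between arrays. For the time course that spread was pooled over all 18 arrays. Precision is limited by the number of arrays.

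A young Arabidopsis leaf grows by division of cells throughout the blade. Division then stops, from the tip toward the base, and cells go on growing by expansion, often with further rounds of DNA replication without division. During the same period plastids become photosynthetically competent and the last cell types of the epidermis and the veins differentiate. The comparison asks how the leaf transcriptome differed after these 2 days. RNA came from whole leaves, so fewer cells of a type and less RNA per cell cannot be told apart in any value below.

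Arrays of the same day correlated at 0.981 to 0.982 for day 8 and 0.976 to 0.987 for day 10 over all probe sets, and arrays of day 8 and day 10 at 0.945 to 0.962. Array 1 of day 10 and array 1 of day 8 had the lowest limma array weights of the 18 arrays, 0.560 and 0.635, and without that pair 4445 probe sets were called in place of 5285. Defining genes of other tissues were near the middle of the array, whose median level was 3.61 at day 8 and 3.58 at day 10. The mean level of 9 root genes ran from 3.44 to 3.69 over the day-8 arrays and from 3.5 to 3.66 over the day-10 arrays. For 14 genes of the shoot meristem and organ boundaries it ran from 3.46 to 3.70 and from 3.37 to 3.49.

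Of 30237 probe sets, 5285 (17.5%) differed between the days at an adjusted p under 0.05 (limma, Benjamini-Hochberg over all probe sets), which is the meaning of a call throughout, and 27.1% had an unadjusted p under 0.05. The calls comprised 1955 probe sets that were higher at day 10 (6.47%) and 3330 that were lower (11.0%). Rises were fewer but larger, with 548 rises (1.81%) and 392 falls (1.3%) of at least 1 on the log2 scale and 88 rises and 69 falls of at least 2. The share of calls that were rises was 37.0%, and 48.6% when the 18 arrays were quantile normalized again. The median difference over all probe sets was -0.02, and that of the called rises and falls was 0.75 and -0.58. The day-8 and day-10 arrays did not overlap for 5107 of the called probe sets, beside 30.1% of all probe sets. In 405 rises and 472 falls the dimmer day had a mean no higher than that day's array median. For those genes the difference may understate the change, which was not tested.

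Lists in which all measured members rose were those of the antenna, the photosystems and photorespiration, and the histone H3.1 list fell in all its members. Over 44 lists, which hold 645 measured genes in all, 207 genes rose and 116 fell. The plot of calls by gene list shows each list against the share of all probe sets.

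**Figure D1:**
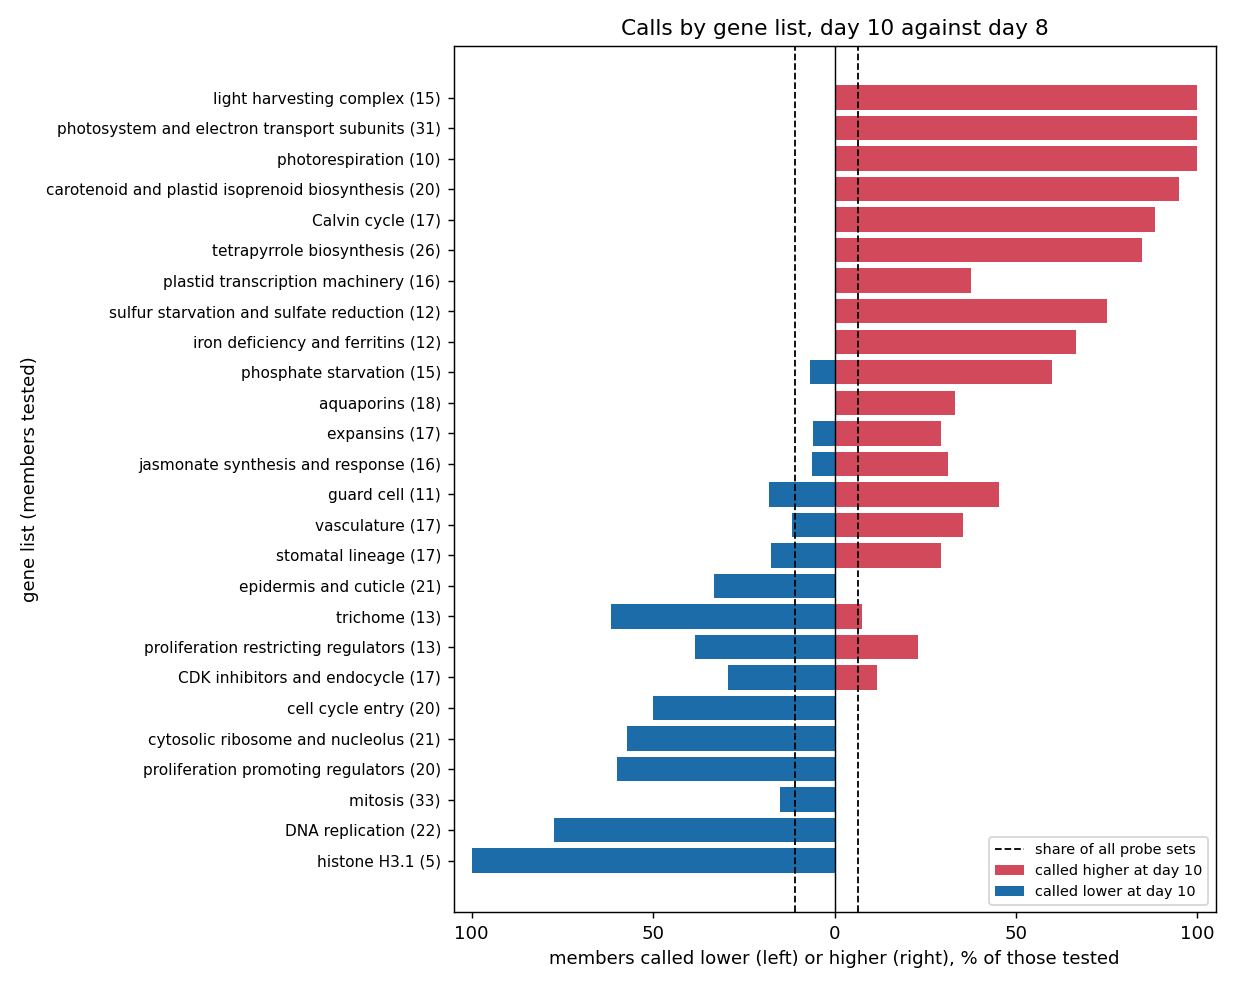
Share of the measured members of 26 gene lists called higher (right) or lower (left) at day 10 than at day 8, in percent, with the number of members tested in brackets and dashed lines at the shares of all probe sets (6.47% higher and 11.0% lower). The light harvesting, photosystem and photorespiration lists lie wholly to the right and the histone H3.1 list wholly to the left.

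The largest rise was that of CA1 (AT3G01500), a chloroplast carbonic anhydrase that hydrates carbon dioxide. Its level was 5.74, 4.50 and 4.99 on the day-8 arrays and 10.47, 11.55 and 11.24 on the day-10 arrays. The arrays were far apart, and the difference was 6.02 ± 0.48 (standard error, as after every difference below; 64.6-fold, adjusted p = 7.81e-07). CA2 (AT5G14740), a further carbonic anhydrase, stood at 4.92, 4.42 and 4.68 and then at 9.28, 9.72 and 9.43, a difference of 4.80 ± 0.27 (adjusted p = 3.74e-08). BCA4 rose by 3.00 ± 0.25, from 3.93 to 4.19 on the day-8 arrays to 6.85 to 7.20 on the day-10 arrays. The remaining 3 beta carbonic anhydrases measured, BCA3, BCA5 and BCA6, differed by -0.07 ± 0.12, 0.27 ± 0.15 and 0.17 ± 0.28 and were not called, so the rise was seen in 3 of 6 members.

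CP12-2, a small protein that binds enzymes of the Calvin cycle in the dark, rose by 3.46 ± 0.35 (adjusted p = 6.12e-06). Its level was 4.44, 3.78 and 4.05 at day 8 and 7.27, 7.63 and 7.75 at day 10. PRP2, a proline-rich protein of the cell wall, was uneven at day 8, with 7.16 on array 1 and 3.64 and 4.18 on the others, against 7.69, 8.87 and 8.60 at day 10. The days did not overlap, and the difference was 3.39 ± 0.59 (adjusted p = 0.000722). TGG2, a myrosinase of the glucosinolate defence, rose by 3.25 ± 0.45, and its relative TGG1 by 3.04 ± 0.43. AOC2, an allene oxide cyclase of jasmonate synthesis, rose by 3.19 ± 0.37 from a level below the array median. The other 4 of the 10 largest rises, PAP17, SPX1, SRG3 and BHLH39, are genes of the responses to phosphate and iron and are described with them.

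**Figure D2:**
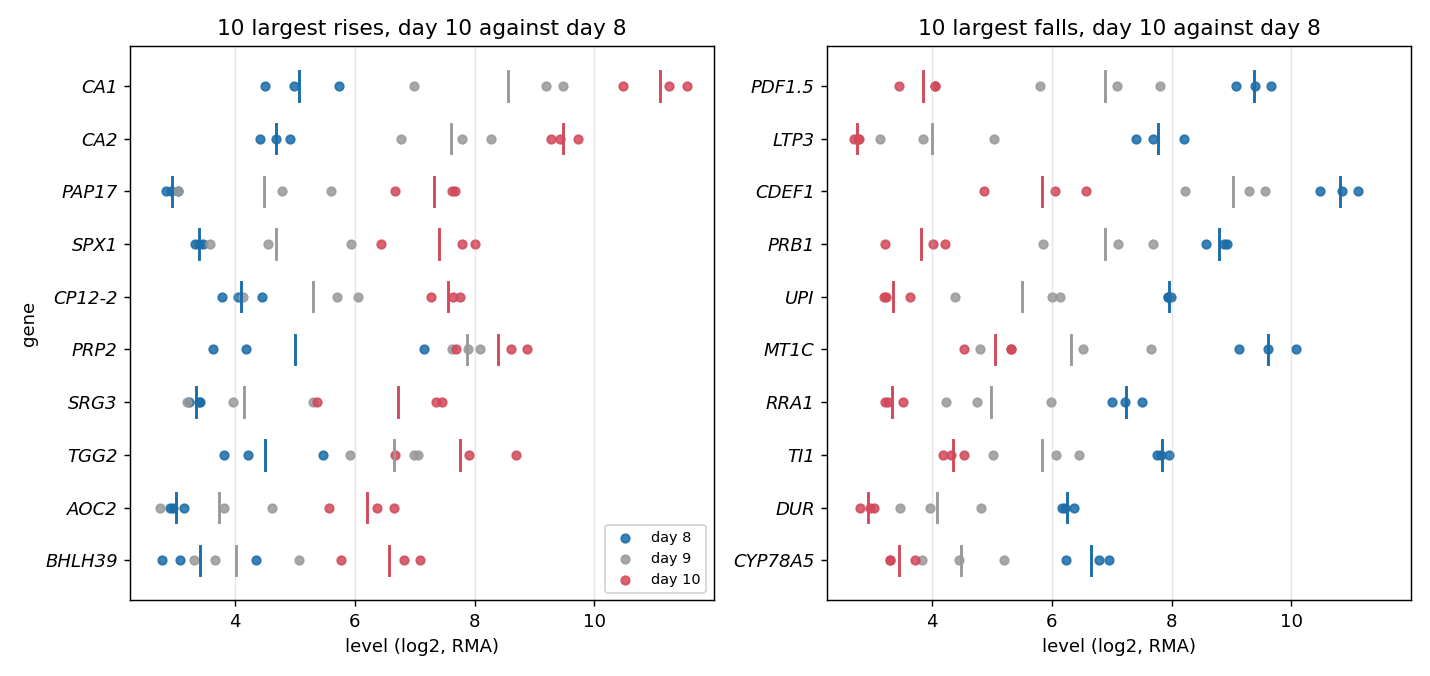
Log2 level on each array (points) and group mean (bars) at day 8, day 9 and day 10 for the 10 largest rises and the 10 largest falls between day 8 and day 10. The day-8 and day-10 points do not overlap for any of these genes, which the choice of genes required, and most day-9 points lie between them.

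The 10 largest falls included genes for small secreted proteins, lipid-related proteins and a metallothionein. PDF1.5, a member of the plant defensin family, stood at 9.08, 9.39 and 9.66 at day 8 and at 4.05, 4.05 and 3.45 at day 10. It fell by 5.53 ± 0.36 on the log2 scale, a 46.1-fold difference (adjusted p = 1.96e-07). CDEF1, a cutinase, had 11.11, 10.47 and 10.86 at day 8 and 6.57, 6.04 and 4.86 at day 10, a difference of -4.99 ± 0.47. LTP3, a lipid transfer protein, went from 7.41, 7.69 and 8.20 to 2.78, 2.69 and 2.77, below the array median. Its difference of -5.02 ± 0.50 may thus be understated. PRB1, a basic pathogenesis-related protein, and UPI, a serine protease inhibitor, fell by 4.97 ± 0.34 and 4.60 ± 0.31. TI1, a trypsin inhibitor, fell by 3.5 ± 0.28.

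MT1C, a metallothionein, had 9.61, 10.08 and 9.13 at day 8 and 5.31, 5.31 and 4.53 at day 10, a difference of -4.56 ± 0.53 (adjusted p = 2.22e-05). The 4 measured metallothioneins did not move together. MT3 rose by 1.90 ± 0.31, MT2B fell by 0.58 ± 0.12, and MT2A differed by -0.48 ± 0.18 without a call. RRA1, which takes part in arabinosylation of cell wall proteins, fell by 3.92 ± 0.29, and DUR, of the UDP-sugar epimerase family, by 3.32 ± 0.22. Both ended below the array median at day 10.

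The regulators that promote leaf cell proliferation fell as a group: 12 of 20 were called lower and 0 higher, with a median of -0.73. CYP78A5 (KLUH), a cytochrome P450 that prolongs organ growth, had 6.24, 6.78 and 6.95 at day 8 and 3.72, 3.3 and 3.3 at day 10, a difference of -3.22 ± 0.25 (adjusted p = 6.32e-07). NUB and JAG, zinc finger proteins that sustain growth of lateral organs, fell by 2.36 ± 0.23 and 1.87 ± 0.20. GRF5, a growth-regulating factor, had 5.66, 5.95 and 5.88 at day 8 and 4.11, 3.86 and 3.57 at day 10, and fell by 1.98 ± 0.22. GRF3, GRF9, GRF1, GRF2 and GRF7 were also called lower, by 0.67 to 1.56, whereas GRF4, GRF6 and GRF8 were not called. ANT, an AP2-type factor that maintains the competence to divide, fell by 1.75 ± 0.18, from 6.77 to 7.03 over the day-8 arrays to 5.12 to 5.2 over the day-10 arrays. AN3, the coactivator partner of the GRF proteins, fell by 1.32 ± 0.30 (adjusted p = 0.00526).

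Regulators known to restrict proliferation moved in both directions, 3 of 13 higher and 5 lower, beside 6.47% higher and 11.0% lower over all probe sets. TCP4 and TCP3, class II TCP factors that favour the exit from division, rose by 1.11 ± 0.17 and 1.08 ± 0.13. TCP4 had 5.75, 5.84 and 5.22 at day 8 and 6.73, 6.76 and 6.66 at day 10. TCP10 rose by 0.52 ± 0.17, while TCP5, TCP2 and TCP17 fell by 0.84 ± 0.13, 0.67 ± 0.17 and 0.51 ± 0.17. PPD2, which limits the division of cells of the stomatal lineage, had 6.57, 6.83 and 7.01 at day 8 and 4.46, 4.78 and 5.15 at day 10, and fell by 2.01 ± 0.18 (adjusted p = 2.4e-06). Its relative PPD1 fell by 0.92 ± 0.20. Without array 3 of day 10 the falls numbered 3.

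**Figure D3:**
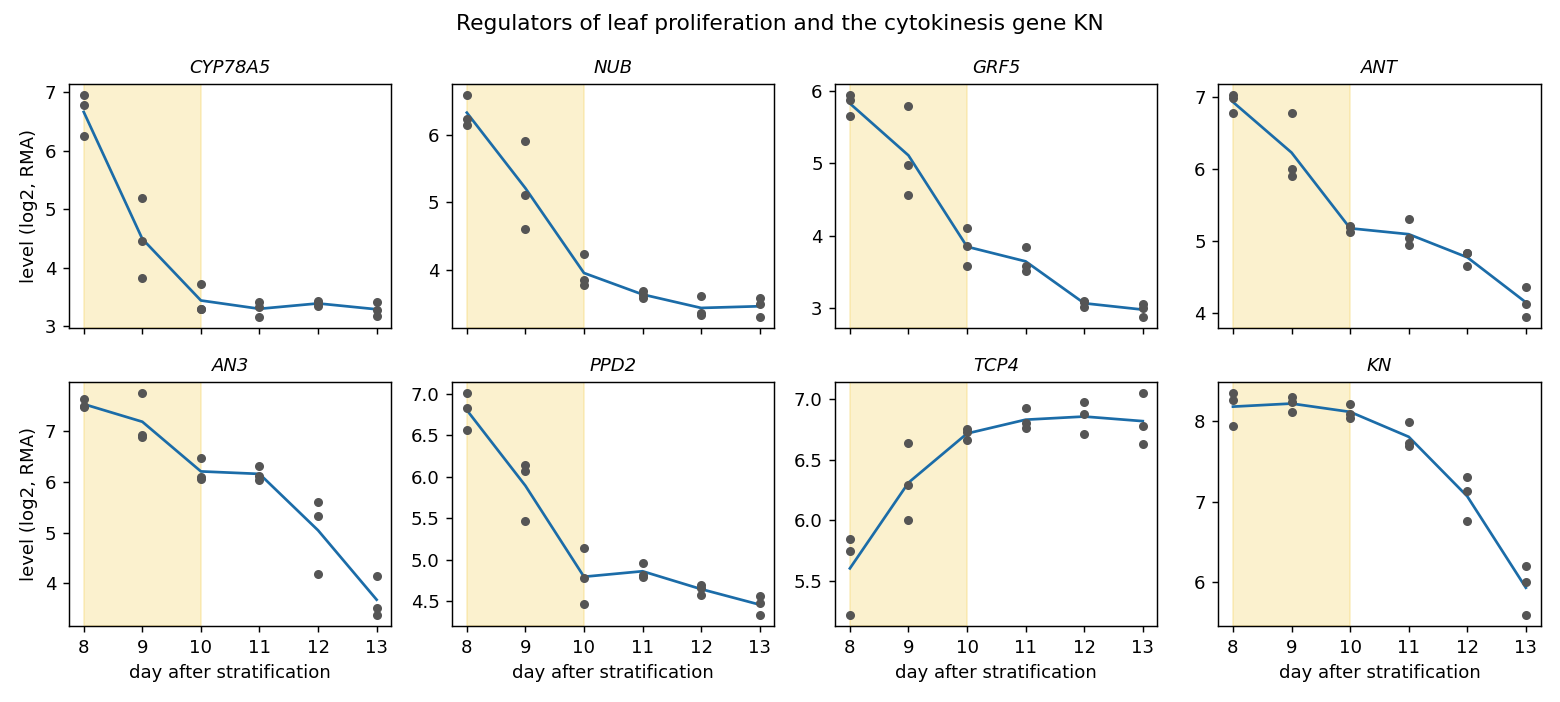
Log2 level on each array (points) and group mean (line) by day after stratification for 7 regulators of leaf proliferation and for KN, with days 8 to 10 shaded. CYP78A5, NUB, GRF5 and PPD2 dropped within the shaded days, while KN stayed between 7.93 and 8.34 there and fell afterwards.

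Most genes of DNA replication were called lower, and few genes of mitosis were. The difference between these lists was not tested. Of 22 replication genes 17 were called lower and 0 higher (median -0.59), and 10 were called lower when array 1 of each day was left out. PCNA1, the sliding clamp of the replication fork, had 9.60, 9.54 and 9.62 at day 8 and 8.76, 8.23 and 8.41 at day 10, a difference of -1.12 ± 0.15 (adjusted p = 6.44e-05). PCNA2 and MCM2, the latter a subunit of the replicative helicase, fell by 0.96 ± 0.13 and 0.97 ± 0.14. ORC6 and ORC2, subunits of the origin recognition complex, fell by 0.92 ± 0.16 and 0.90 ± 0.14. All 5 histone H3.1 genes, whose protein is deposited during replication, fell by 0.63 to 0.80. Their sequences are near identical, and how far their probe sets share signal was not tested.

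Of 33 mitotic genes, 5 were called lower and 0 higher, and the median was -0.18. The difference was above 0 for 7 of the 33. The count of falls was 3 without array 1 of day 8 and 3 without array 1 of day 10. The 5 called genes were HTR12, the centromeric histone H3, with -1.05 ± 0.16, CYCA2;4, AUR3, CDKB1;1 and CDKB1;2, and these lay between -1.05 and -0.48. KN, the syntaxin of the cell plate, had 8.34, 7.93 and 8.25 at day 8 and 8.08, 8.04 and 8.21 at day 10, so the days overlapped. Its difference was -0.07 ± 0.16 (adjusted p = 0.866), and 0.015 after quantile normalization again. The mitotic cyclins CYCB1;1 and CYCB1;2 differed by -0.25 ± 0.14 (adjusted p = 0.263) and -0.53 ± 0.22 (adjusted p = 0.128), the latter called at an adjusted p of 0.0352 when the 6 compared arrays alone were fitted. A share of 5 in 33 lies near the 11.0% of all probe sets that fell.

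Genes of cell cycle entry lay between, with 10 of 20 lower and 0 higher, and with 5 lower without array 2 of day 10 and 6 without array 1 of day 8 or after quantile normalization again. The largest fall in the list was that of CYCD3;3, a D-type cyclin, which had 7.20, 7.14 and 7.08 at day 8 and 6.25, 5.77 and 5.85 at day 10, a difference of -1.19 ± 0.12. E2F2, E2F3 and RBR1, of the switch that controls S-phase genes, fell by 0.68, 0.56 and 0.43. Among 17 CDK inhibitors and endocycle regulators, 2 rose and 5 fell, beside 6.47% higher and 11.0% lower over all probe sets. KRP3, SIM and KRP5 fell by 1.57 ± 0.28, 1.06 ± 0.24 and 1.01 ± 0.15, while SMR1 and KRP1 rose by 0.94 ± 0.24 and 0.74 ± 0.20. Neither rise was called without array 3 of day 10.

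Cytosolic ribosome and nucleolus genes were lower in 12 of 21 cases and higher in 0, with a median of -0.36, and the count was 7 when the 6 compared arrays alone were fitted. The falls were small, from 0.33 for RPS13A to 0.66 for RPL16A. The fibrillarin gene FIB2 differed by -0.58 ± 0.25 (adjusted p = 0.13) and was not called. By contrast, 11 of 12 nuclear genes named for plastid ribosomal proteins rose and 1, RPL3P, fell, with a median of 0.68. That group was drawn up by name after the values had been seen.

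Every measured gene of the antenna, the photosystems and photorespiration in the lists was higher at day 10. The light harvesting list rose in 15 of 15 members (median 1.09), the photosystem and electron transport list in 31 of 31 (median 0.90) and photorespiration in 10 of 10 (median 1.42), where 6.47% of all probe sets rose. The mean level of the 31 photosystem genes was 10.51, 10.27 and 10.33 on the day-8 arrays and 11.04, 11.42 and 11.37 on the day-10 arrays. The smallest rises of the photosystem and the light harvesting lists were those of FD2, a ferredoxin, and LHCB5, with 0.36 ± 0.10 and 0.53 ± 0.14 at day-8 means of 11.8 and 11.7. LHCB1.4, an antenna protein of photosystem II, had 8.18, 8.11 and 7.80 at day 8 and 10.19, 11.09 and 10.90 at day 10, a difference of 2.70 ± 0.27 (adjusted p = 6.07e-06). LHCA6 and LHCB2.3 rose by 2.25 ± 0.21 and 2.14 ± 0.21.

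In the Calvin cycle 15 of 17 genes rose and 0 fell (median 1.2). After CP12-2 came HCEF1, a fructose bisphosphatase, with 2.23 ± 0.26, and RCA, Rubisco activase, with 1.90 ± 0.25. RCA had 9.82, 9.07 and 9.03 at day 8 and 10.78, 11.59 and 11.26 at day 10. RBCS1A, a Rubisco small subunit, had a day-8 mean of 13.7, and its difference of 0.38 ± 0.32 was not called (adjusted p = 0.527). In photorespiration AGT, which transaminates glyoxylate in the peroxisome, and CAT2, the leaf catalase, rose by 2.71 ± 0.27 and 2.44 ± 0.28. CAT2 had 4.75, 5.08 and 4.68 at day 8 and 6.67, 7.66 and 7.50 at day 10.

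Pigment pathways rose by less per gene and nearly throughout. In tetrapyrrole biosynthesis 22 of 26 genes rose and 0 fell (median 0.78), led by PORC, a protochlorophyllide reductase, with 1.28 ± 0.19 and LIN2, a coproporphyrinogen oxidase, with 1.19 ± 0.18. The 4 not called were FC1, FC2, HEMA2 and PORB. In carotenoid and plastid isoprenoid biosynthesis 19 of 20 rose and 0 fell (median 0.77). BCH2, a carotene hydroxylase, rose by 1.80 ± 0.20, PSY, phytoene synthase, by 1.25 ± 0.21, and PDS3, phytoene desaturase, by 0.63 ± 0.17. The call of PDS3 ended without array 2 or 3 of either day.

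Of 16 genes of plastid transcription 6 rose and 0 fell, and 11 rose after quantile normalization again or with array weights. PTAC16 and SIGD, a sigma factor, rose by 2.21 ± 0.24 and 1.38 ± 0.19. GLK1, a transcription factor of chloroplast development, had 5.93, 5.14 and 5.04 at day 8 and 6.69, 6.90 and 6.72 at day 10, and rose by 1.4 ± 0.19 (adjusted p = 0.000112). GLK2 rose by 0.65 ± 0.14. GNC, a GATA factor, rose by 0.70 ± 0.21 but was not called without array 3 of day 8 or any array of day 10. HY5, a bZIP factor of light responses, fell by 0.81 ± 0.16. Plastid division genes rose in 2 of 10 cases, beside 6.47% of all probe sets. These were FTSZ2-1 and FTSZ2-2, each by 0.74 ± 0.18. Of 67 loci encoded in the plastid itself, a group added after the values had been seen, 7 rose and 0 fell, beside 6.47% higher over all probe sets. Array 3 of day 8 stood apart in this group, whose mean level was 6.50, 6.47 and 7.53 on the day-8 arrays and 6.79, 6.97 and 6.92 on the day-10 arrays.

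Genes of the responses to low phosphate, sulfur and iron were higher at day 10, and array 1 of day 10 was the lowest of its day in each list. The mean level of the 15 phosphate genes was 3.67, 3.80 and 3.73 at day 8 and 4.54, 5.50 and 5.76 at day 10. Of these, 9 rose, 1 fell and the median was 0.999. PAP17, an acid phosphatase, had 2.85, 2.93 and 3.04 at day 8 and 6.66, 7.62 and 7.67 at day 10, a difference of 4.38 ± 0.44 (adjusted p = 6.12e-06). SPX1, an inhibitor of the main phosphate starvation factor, had 3.40, 3.33 and 3.46 and then 6.43, 7.79 and 8.01, a difference of 4.01 ± 0.45 (adjusted p = 1.76e-05). SRG3, a glycerophosphodiester phosphodiesterase, and PS2, a phosphatase, rose by 3.38 ± 0.50 and 2.72 ± 0.54. Since all of these were below the array median at day 8, the differences may be understated. SQD1 and SQD2, which make sulfolipid, rose by 2.48 ± 0.29 and 2.23 ± 0.31 (adjusted p = 2.22e-05 and 0.000124). The transporter gene PHT1;4 fell by 0.56 ± 0.13, and IPS1, RNS1 and SPX3 differed by 0.06 ± 0.23, 0.01 ± 0.10 and 0.04 ± 0.13 without a call.

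Of 12 genes of sulfur starvation and sulfate reduction 9 rose and 0 fell (median 1.2). LSU2, a small protein induced by sulfur limitation, had 3.06, 4.28 and 3.05 at day 8 and 5.50, 6.44 and 6.98 at day 10, a difference of 2.84 ± 0.36 (adjusted p = 5.88e-05). The 3 APS reductases APR1, APR2 and APR3 rose by 1.99 ± 0.35, 1.86 ± 0.27 and 2.28 ± 0.34. The sulfate transporters SULTR1;1 and SULTR1;2 differed by 0.04 ± 0.12 and -0.09 ± 0.18 and were not called.

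Of 12 genes of iron deficiency and iron storage 8 rose and 0 fell (median 1.25), with 5 rises without array 3 of day 10. The rises were of deficiency genes. BHLH39, a factor of the iron uptake response, had 4.35, 3.08 and 2.78 at day 8 and 5.78, 6.82 and 7.09 at day 10. It rose by 3.16 ± 0.66 (adjusted p = 0.00292) from a mean below the array median. BHLH100, BHLH38 and BHLH101 of the same subgroup rose by 2.90 ± 0.61, 2.12 ± 0.57 and 1.36 ± 0.43, and BHLH38 was not called without array 3 of day 8 or without array 2 or 3 of day 10. The ferritins FER1, FER3 and FER4, which store iron, differed by -1.10 ± 0.60, -0.45 ± 0.22 and -0.38 ± 0.26 and were not called.

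**Figure D4:**
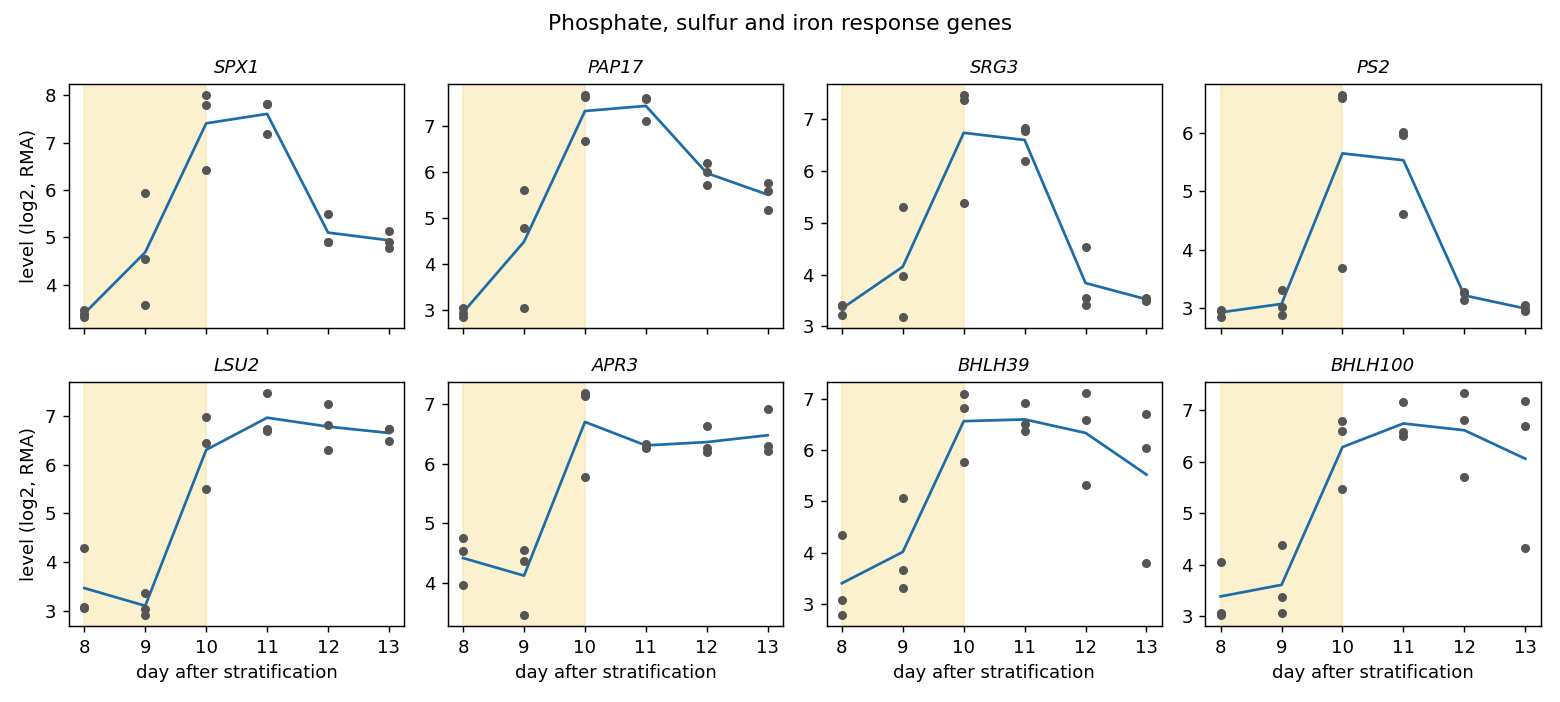
Log2 level on each array (points) and group mean (line) by day after stratification for phosphate (SPX1, PAP17, SRG3, PS2), sulfur (LSU2, APR3) and iron (BHLH39, BHLH100) response genes, with days 8 to 10 shaded. All were high at day 10, array 1 of day 10 was the lowest of its day, and the phosphate genes were lower again at days 12 and 13.

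Among cell type markers, genes of the early trichome fell and those of guard cells and veins rose in part. Of 13 trichome genes 8 fell and 1 rose, beside 11.0% lower and 6.47% higher over all probe sets. The mean level of the list ran from 5.0 to 5.17 over the day-8 arrays and from 4.34 to 4.46 over the day-10 arrays. GL1, the MYB factor of trichome initiation, had 7.64, 7.62 and 7.64 at day 8 and 5.99, 5.55 and 6.02 at day 10, a difference of -1.78 ± 0.19 (adjusted p = 9.23e-06). CPC and ETC1, small MYB proteins that inhibit trichome fate, fell by 1.66 ± 0.24 and 1.63 ± 0.30. GL2, TTG1 and ETC2 were not called, and GIS rose by 0.83 ± 0.20.

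In the stomatal lineage 5 of 17 genes rose and 3 fell, beside 6.47% higher and 11.0% lower over all probe sets. The 3 that fell were the receptor kinases ERL2, ERL1 and ER, which restrain stomatal density, with -2.02 ± 0.19, -1.37 ± 0.17 and -1.11 ± 0.14. ERL2 had 6.10, 5.82 and 6.24 at day 8 and 4.1, 3.86 and 4.15 at day 10. SPCH, the factor that starts the lineage, differed by -0.06 ± 0.18 (adjusted p = 0.901), with a sign that turned under 5 alternatives. FMA and MUTE, which act late in the lineage, and the secreted peptide EPF1 rose by 0.79 ± 0.13, 0.52 ± 0.15 and 1.08 ± 0.20. Of 11 guard cell genes 5 rose and 2 fell, with 3 rises without array 3 of day 10. The mean level of the guard cell list ran from 3.64 to 3.83 at day 8 and from 4.1 to 4.51 at day 10. The myrosinase genes TGG1 and TGG2 had by far the largest differences in it, and the other 9 members lay between -1.15 and 0.61. TGG1 had 6.50, 5.47 and 5.08 at day 8 and 7.77, 9.61 and 8.80 at day 10, whereas the ion channel genes KAT1 and KAT2 rose by 0.52 ± 0.14 and 0.55 ± 0.12, and SLAC1 and GORK stayed at means of 3.0 to 3.1 without a call. OST1, a kinase of guard cell signalling that other leaf cells also express, fell by 1.15 ± 0.14.

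Of 17 vascular genes 6 rose and 2 fell, with 3 rises without array 2 or without array 3 of day 10. Over all probe sets 6.47% rose and 11.0% fell, so the share of vascular falls was near that of all. The mean level ran from 3.54 to 3.58 at day 8 and from 3.67 to 3.93 at day 10. XCP2, a protease of developing xylem, had 2.99, 3.14 and 3.25 at day 8 and 4.1, 5.84 and 5.46 at day 10. It rose by 2.01 ± 0.32 (adjusted p = 0.00035) from a mean below the array median. SUC2, the sucrose transporter of phloem companion cells, rose by 0.81 ± 0.18. Among the falls was MP (-1.53 ± 0.18), a factor of auxin response that acts when veins are laid down. Epidermis and cuticle genes fell in 7 of 21 cases and rose in 0, and the mean level ran from 6.63 to 6.95 and then from 6.13 to 6.27. After LTP3 the falls were of LTP2 (-1.46 ± 0.31), LTPG1, BDG1, LACS2, ATML1 and PDF2, whereas LTP1, FDH, CER1 and CUT1 were not called. The part of a changed share of these cell types in the other results was not tested.

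Genes of cell wall growth and water transport rose in part, beside 6.47% higher and 11.0% lower over all probe sets. Of 17 expansins 5 rose and 1 fell, with 2 or 3 rises when array 2 of day 8 or array 2 or 3 of day 10 was left out. EXPA1 had 5.91, 5.44 and 5.34 at day 8 and 6.67, 6.89 and 6.41 at day 10, a difference of 1.09 ± 0.17 (adjusted p = 0.000309). EXPA8 rose by 0.93 ± 0.29, a call that ended without any array except array 1 of day 10. Of 20 xyloglucan endotransglucosylases 2 rose and 2 fell, a share near that of all probe sets. Of 18 aquaporins 6 rose and 0 fell, led by TIP2;1 of the vacuole membrane, which went from 8.70, 8.75 and 8.73 to 10.14, 10.12 and 10.30, a difference of 1.46 ± 0.16. Of 6 cellulose synthases of the primary wall 1 rose, CESA2 with 0.48 ± 0.10, and 3 rose after quantile normalization again and 2 with array weights or without array 1 of day 10.

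Hormone lists differed in their counts, beside 6.47% higher and 11.0% lower over all probe sets. In auxin response 2 of 15 rose and 2 fell: IAA7, a repressor of auxin response, rose by 1.82 ± 0.25 and GH3.5, which conjugates auxin, fell by 2.29 ± 0.26, with GH3.3 at -1.70 ± 0.21 and SAUR23 at 0.72 ± 0.15. In cytokinin 1 of 18 rose, ARR4 with 0.98 ± 0.15, and 2 fell, with 3 rises without array 2 of day 10, after quantile normalization again, with dim probe sets removed or with array weights. Without array 2 of either day 1 fell. In gibberellin 3 of 16 rose and 2 fell, and GASA6, a gibberellin-responsive peptide, and GA3OX1, an enzyme of gibberellin activation, rose by 1.93 ± 0.28 and 1.48 ± 0.19. In jasmonate 5 of 16 rose and 1 fell, with 3 rises without array 3 of day 8 or without array 2 or 3 of day 10. The call of the fall ended under several alternatives. LOX2, a plastid lipoxygenase, had 3.98, 3.59 and 3.82 at day 8 and 6.0, 7.3 and 7.02 at day 10, a difference of 2.98 ± 0.32. In the circadian clock 1 of 15 rose and 1 fell, each call ending under several alternatives, and CCA1 differed by 0.16 ± 0.17 (adjusted p = 0.617).

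Fewer probe sets were called on the first day than on the second. From day 8 to day 9, 386 probe sets were called (1.28%, with 0.46% higher and 0.817% lower). From day 9 to day 10, 2232 were called (7.38%, with 2.37% higher and 5.01% lower). These intervals share the day-9 arrays, and each shares arrays with the whole interval. The day-9 mean lay between those of day 8 and day 10 for 88.1% of the called probe sets and 46.0% of all. A call requires day 8 and day 10 to lie apart, which raises the first share, so these shares are not a test of steady change. For rises of at least 1 on the log2 scale, the part of the change reached by day 9 had a median of 41.3% (quartiles 29.5% and 52.9%), and for such falls 48.3% (35.1% and 64.4%). CA1 had 9.20, 9.48 and 6.99 on the day-9 arrays, which is 57.9% of its rise, and LTP3 had reached 75% of its fall. The sulfur list had a median of -0.15 from day 8 to day 9 and of 1.17 from day 9 to day 10, and LSU2 was at 2.91, 3.36 and 3.03 at day 9. Iron genes had medians of 0.10 and then 1.15, cytosolic ribosome genes of 0.004 and then -0.38, mitotic genes of 0.06 and then -0.34, and aquaporins of -0.05 and then 0.41. Tetrapyrrole genes had similar medians on both days, 0.40 and 0.37.

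The test of unequal change over the 2 days called 1 probe set (0.00331%), and 2692 (8.9%) had an unadjusted p under 0.05. The called locus, AT2G25510, has no symbol in the reference table and is named because it was the sole call. It had 6.13, 6.45 and 6.24 at day 8, 4.53, 4.46 and 4.91 at day 9, and 6.39, 8.26 and 7.84 at day 10, so it was lowest at day 9. The change of the second day exceeded that of the first by 4.51 ± 0.56 (adjusted p = 0.0128). The count was 0 to 37 with each array of these days left out in turn and 70 with array weights.

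The change of days 8 to 10 was set against that of days 11 to 13, a 2-day interval that shares no array with it. Between days 11 and 13, 3750 probe sets were called (12.4%, with 5.47% higher and 6.93% lower), and 23.8% had an unadjusted p under 0.05. Of the rises of days 8 to 10, 606 also rose from day 11 to day 13 (31% of the early and 36.6% of the late rises), and 1125 fell in both (33.8% and 53.7%). Opposite calls were fewer, with 62 that rose and then fell (3.17% of the early rises and 2.96% of the late falls). A further 43 fell and then rose (1.29% of the early falls and 2.6% of the late rises). The 2 changes differed by test for 1494 probe sets (4.94%), 746 with the more positive change early (2.47%) and 748 with it late (2.47%), while 16.7% had an unadjusted p under 0.05.

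Mitotic and replication genes differed in their counts in this test. Of 33 mitotic genes 29 fell between days 11 and 13 (median -1.23), and for 20 the late fall exceeded the early change. KN fell by 1.87 ± 0.16 between days 11 and 13, a difference of 1.80 ± 0.23 between the intervals (adjusted p = 0.000238). Of 22 replication genes 13 fell between days 11 and 13 (median -0.47), and for 1, TSO2, a ribonucleotide reductase subunit, the intervals differed. PCNA1 fell by 1.33 ± 0.15 in the late interval, and its intervals differed by 0.21 ± 0.21 (adjusted p = 0.698). All 5 histone H3.1 genes fell between days 11 and 13, with a median of -1.41 against -0.75 in the early interval. For 4 of them the late fall exceeded the early one by the test. Among the promoting regulators 4 of 20, CYP78A5, NUB, GRF5 and JAG, had the larger fall early, and at days 11 to 13 CYP78A5 differed by -0.01 ± 0.25. CYP78A5 was below the array median by day 10, with a mean of 3.44, and NUB and GRF5 were near it at day 11 with 3.64 each, so a further fall could be seen only in part. AN3 fell by 2.48 ± 0.30 in the late interval, 1.15 ± 0.43 more than in the early one, without a call (adjusted p = 0.155).

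**Figure D5:**
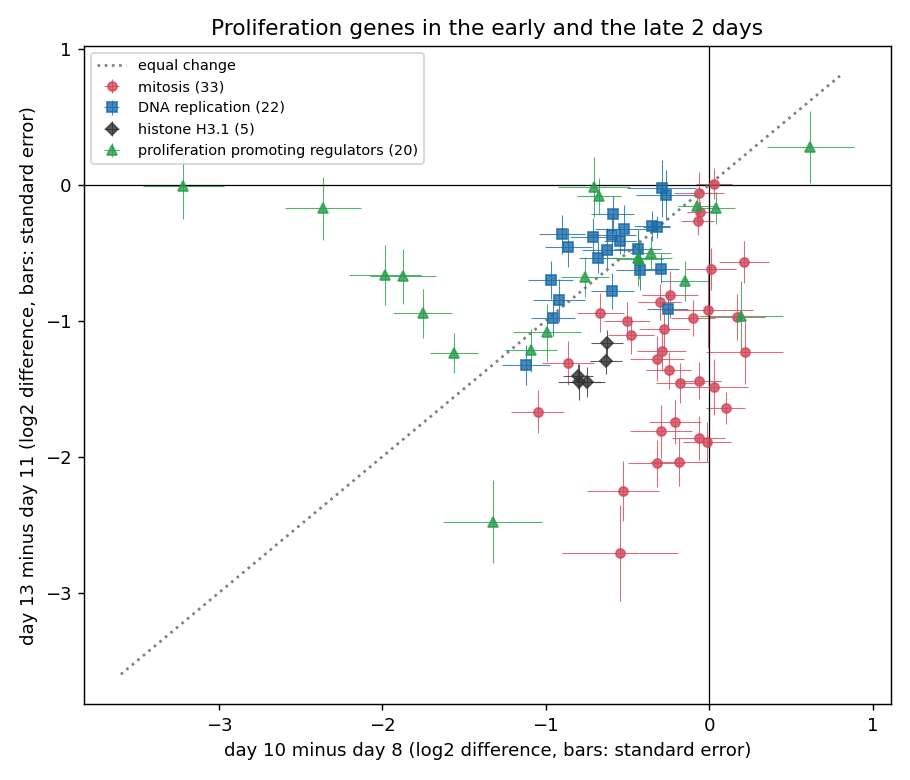
Log2 difference of day 10 minus day 8 (horizontal) against day 13 minus day 11 (vertical) for genes of mitosis, DNA replication, histone H3.1 and proliferation promoting regulators, with standard errors as bars and a dotted line of equal change. Most mitotic genes lie near 0 on the horizontal axis and below it on the vertical, while the replication genes lie near the line. For 4 of the 5 histone H3.1 genes the late fall was larger by the test, so they lie below the line.

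Further lists held genes whose change differed between the intervals, beside 4.94% of all probe sets. Over all probe sets 5.47% rose and 6.93% fell late. The phosphate list rose early in 9 of 15 genes and fell late in 9, and the intervals differed for 9. SPX1 fell by 2.67 ± 0.45 between days 11 and 13. Photosystem genes rose late in 3 of 31 cases, and the intervals differed for 5. Auxin response genes rose late in 11 of 15 cases against 2 early, with a test of the difference for 5, and aliphatic glucosinolate genes in 11 of 11 against 3, with 3. EXPA8 rose by 2.69 ± 0.29 late, 1.76 ± 0.41 more than early (adjusted p = 0.0171).

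The MS control leaves of the other experiment, at day 10 against day 9, gave arrays that the main comparison did not use. Their array medians were 2.81 to 2.88, against 3.5 to 3.63 in the time course, so they were fitted apart, and no source used here states whether both were normalized together. There 3474 probe sets were called (11.5%, with 5.18% higher and 6.31% lower), and 22.8% had an unadjusted p under 0.05. Of the rises from day 8 to day 10, 549 also rose in the control leaves (28.1% of these and 35% of the control rises), and of the falls 609 fell (18.3% and 31.9%). Calls of opposite sign numbered 91 (4.65% of the rises and 4.77% of the control falls) and 173 (5.2% of the falls and 11.0% of the control rises). Over all probe sets 6.47% rose and 11.0% fell from day 8 to day 10. The control difference was positive for 71.8% of the rises, 36.7% of the falls and 48.5% of all probe sets.

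No source used here states that a day of one experiment is the same leaf stage as that day of the other. In the control leaves 29 of 31 photosystem genes, 14 of 15 light harvesting genes and 14 of 17 Calvin cycle genes rose, LHCB1.4 by 3.84, and 1 Calvin cycle gene fell. Photorespiration rose in 4 of 10 (median 0.29), and of the 6 beta carbonic anhydrases 3 rose and 1 fell. Of the nutrient lists 9 of 15 phosphate genes, 6 of 12 sulfur genes and 4 of 12 iron genes rose. Cell cycle lists were not alike. In the control leaves 21 of 33 mitotic genes, 5 of 22 replication genes and 5 of 5 histone H3.1 genes rose and 0 fell, where from day 9 to day 10 of the time course 0 rose and 5, 10 and 1 fell. Of 20 genes of cell cycle entry 1 rose and 2 fell, beside 0 and 6 in the time course, and of 17 CDK inhibitors and endocycle regulators 4 rose and 2 fell, beside 1 and 2. KN rose by 0.67 (adjusted p = 0.00838) and PCNA1 by 0.95 (adjusted p = 0.00044). The difference between the experiments was not tested, and differences of transfer, growth and hybridisation cannot be told apart from the experiment. CYP78A5, NUB, JAG, GRF5 and ANT were not called in the control leaves, with differences of -0.46 to 0.12, and among the trichome genes 1 of 13 fell.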

How the data were processed

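Per the submitters' processing notes, the authors deposited log2 values made with RMA, with TAIR9 as the genome annotation. No source used here gives the RMA version or the probe definitions. Depth does not apply to arrays. Groups followed the labels. The 18 time-course arrays were fitted with limma 3.58.1 in R 4.3.3 (1 coefficient per day, contrasts, eBayes, Benjamini-Hochberg over 30237 probe sets, 12 residual degrees of freedom), and the 12 arrays of the other experiment apart. The procedure was tested on simulated data. The simulated arrays were of equal quality and few of their probe sets changed, unlike these data. No filter was applied. A locus with several probe sets is represented in lists by the brightest. Symbols came from a RefSeq gene table, used for names only, which held 29398 of 29920 loci. Of 675 list entries 17 were not measured and 13 were left out because the table gives their locus another name. Histone H3.1 loci were kept under their locus IDs although the table lacks their HTR symbols.

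Genes named were the 10 largest rises and falls and the 5 largest in each direction between intervals (called, with a symbol, days not overlapping, higher of both means no lower than the array-wide median), up to 3 called members per list, and 28 genes chosen beforehand by name, of which HTR13 appears as AT5G10390. Further list members are named to account for their list. The comparison and lists were chosen with earlier results of these data known. Shares of promoter motifs were planned but not analysed here. Alternatives changed the arrays fitted, normalization, dim filter, variance prior, array weights and replicate block, or left out each array. Tables and plots used Python 3.11.15 with pandas 2.3.3 and matplotlib 3.10.9. One list member is not reported here by name.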

Additional observations from a re-analysis of the deposited data

Results flagged for a closer look

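The change of days 8 to 10 differed from the change of days 11 to 13, by a test of that difference (limma, adjusted over all probe sets), for 10 genes singled out as the largest in each direction. These were drawn from genes with a symbol whose day-8 and day-10 arrays do not overlap. Genes whose arrays overlapped, such as KN, could not enter. More positive early were CA1 (5.19 ± 0.67, adjusted p = 0.000262), PAP17 (6.31 ± 0.62, adjusted p = 3.2e-05), SPX1 (6.68 ± 0.64, adjusted p = 3.06e-05), SRG3 (6.45 ± 0.71, adjusted p = 6.75e-05) and PS2 (5.26 ± 0.77, adjusted p = 0.000754). The 4 phosphate genes among them were called in opposite directions, up early and down late, and CA1 was not called late (0.82 ± 0.48). More negative early were LTP3 (-6.08 ± 0.71, adjusted p = 9.98e-05), PDF1.5 (-5.42 ± 0.51, adjusted p = 3.06e-05), UPI (-4.59 ± 0.43, adjusted p = 3.06e-05), PRB1 (-4.49 ± 0.48, adjusted p = 5.93e-05) and MT1C (-4.32 ± 0.74, adjusted p = 0.00247). None of these 5 was called between days 11 and 13, when the means lay between 2.70 and 5.04. All but MT1C were below the array median at day 11, so a late fall of these may have been missed. LTP3 had 3.46, 5.25 and 2.56 on the day-13 arrays.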

How the results depend on the processing

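Under 13 other settings the count of calls for day 10 against day 8 stayed within 1.5 times, at 3673 to 4869 with each array left out, 3938 for the 6 compared arrays alone, 4793 after quantile normalization again and 5075 with the replicate block. Falls numbered 2161 to 2842 with each array left out, the lowest without array 2 of day 10. No pairing by repeat number was seen: arrays of the same number correlated at -0.248 to 0.166 after group means were removed (2 of 45 over 0.1). The labels do not say whether arrays of the same number were handled together. The block left the count for the early against the late interval at 1366, that for unequal days at 1 and that for control leaves at 3260. For unequal days, the count of 1 became 0 for the compared arrays alone (0 higher), 13 with dim probe sets removed (6 higher and 7 lower) and 70 with array weights (21 higher and 49 lower). It ran from 0 to 37 with each array left out (0 to 15 higher and 0 to 34 lower). The 746 probe sets more positive early became 1133 after quantile normalization again, 1126 with array weights, and 452 to 1003 with each array left out. KN ran from -0.19 to 0.018 with each array left out and turned sign to 0.015 after quantile normalization again, 0.018 without array 1 of day 8 and 0.034 without array 1 of both days. SPCH ran from -0.21 to 0.12 and turned to 0.028 after quantile normalization again, 0.013 with array weights, 0.12 without array 1 of day 8, 0.0057 without array 1 of day 10 and 0.18 without both. Leaving out both was chosen after seeing the data. Of 131 named genes called, 110 kept the call in every other setting and 20 lost it without 1 array. Of 26 list counts of at least 5, 14 stayed within 1.5 times throughout. The cause was not tested. Levels near the array median limit what small falls of dim genes can show.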

Other observations

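Smaller gene groups gave further values for day 10 against day 8, beside 6.47% higher and 11.0% lower over all probe sets. Of 9 SPL factors, which promote the change from juvenile to adult leaves, 2 rose: SPL3 had 2.63, 2.56 and 2.59 at day 8 and 3.42, 4.17 and 4.17 at day 10 (1.33 ± 0.21, adjusted p = 0.000313), and SPL4 rose by 0.47 ± 0.12. SPL9 and SPL15 differed by -0.12 ± 0.12 and -0.11 ± 0.14 and were not called. In the control leaves SPL3 fell by 1.31 from day 9 to day 10 (adjusted p = 0.000726). Among 11 aliphatic glucosinolate genes MYB28, a regulator of the pathway, SOT17 and SOT18 rose by 1.06 ± 0.20, 0.84 ± 0.21 and 0.76 ± 0.21. BCAT4, an enzyme of methionine chain elongation, fell by 1.53 ± 0.42, with 4.12, 5.82 and 3.80 at day 8, and was not called without array 2 of day 8 (-0.91) or array 3 of day 10. Of 13 anthocyanin and flavonoid genes 0 rose and 2 fell, PAP2 by 0.73 ± 0.17 and TT5 by 0.63 ± 0.17. That share of falls lies near the 11.0% of all probe sets. Only 1 fell with dim probe sets removed, without array 1 of day 8 or without array 1 of day 10.

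Of 88 microRNA loci, 1 rose and 2 fell, and of 33 loci encoded in the mitochondrion 0 rose and 3 fell, beside 6.47% higher and 11.0% lower over all probe sets, both groups added after the values had been seen. Among carbon starvation genes 0 of 9 rose and DIN4 fell by 0.58 ± 0.18, a call that ended under 7 of the 13 other settings. At the organ boundary CUC3 fell by 0.89 ± 0.12 and CUC2 by 0.59 ± 0.16.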
